A study of Mus musculus with 9 samples.

Results

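The 35 genes described here make, regulate and move sterols and fatty acids, and their transcripts were measured in iNKT1 cells of 3 mouse tissues. The list held 17 enzymes of the mevalonate and sterol branch, 5 regulators of the SREBP factors, 8 enzymes of fatty acid synthesis, desaturation and elongation, and 5 genes of sterol handling and efflux. Members were found by matching gene symbols to the gene identifiers of the table, and 34 of the 35 matched 1 row each among 14004 genes. Hmgcs1 was not analysed here. All 34 passed the filter on low values, which left 13309 genes in the tests.

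The iNKT lineage (invariant natural killer T cells) recognises lipid antigens on CD1d molecules, and its iNKT1 subset is defined by the transcription factor T-bet. The 9 libraries were 3 each from thymus, liver and spleen of untreated C57BL/6 mice. All 9 carried the same alleles, Tbx21CreTg and Rosa26-LSL-YFP+/+, so that Cre was driven by Tbx21 (the T-bet gene), YFP marked cells with a history of Tbx21 expression, and no group differed by genotype. The study's design text calls the replicates of a tissue independent, but the labels give neither the age of the mice, nor the sort gate, nor whether animals were pooled or shared between tissues. The p-values below therefore measure the spread between these libraries, which may be partly technical. Levels are read counts as normalised by the authors, and a difference between tissues is a log2 fold change on the log2(value + 1) scale, which understates changes of low genes.

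Cells build cholesterol from acetyl units through mevalonate, squalene and lanosterol. The transcription factor SREBP2, encoded by Srebf2, raises the genes of this route when sterols in the endoplasmic reticulum are low, because Scap then carries it to the Golgi for cleavage, while Insig proteins hold it back when sterols are plentiful. SREBP1, encoded by Srebf1, drives fatty acid synthesis, and the LXR receptors respond to oxidised sterols by raising the exporters Abca1 and Abcg1. In T cells these routes are known to supply membrane for growth and division.

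Libraries differed in depth and in closeness. The deposited values corresponded to 18493127 to 39671364 estimated reads in 8 libraries and to 3888184 in liver replicate 3, where 1 read is worth 6.02 units, so low values there rest on a handful of reads. Within a tissue, the correlation of log2 values across genes ran from 0.704 to 0.863 between libraries. The mean log2 level of all tested genes was 7.03 ± 0.42 (SD, n = 3) in thymus, 7.61 ± 0.27 in liver and 7.63 ± 0.16 in spleen, and log2 fold changes over all genes had a median of 0.29 for liver vs thymus, 0.33 for spleen vs thymus and -0.02 for liver vs spleen. The column name of thymus replicate 2 has the prefix WTf where the others have WT, which the labels do not explain. Libraries also differed in sex-linked transcripts, for which the labels give no sex. Xist was at 84540, 107700 and 96510 in the libraries numbered 2 of liver, spleen and thymus, and the Y-linked Ddx3y was at 0.633 to 3.50 there. In thymus replicate 3 both were present, Xist at 16530 and Ddx3y at 2603, while the 5 other libraries had Xist at 1.14 to 125 and Ddx3y at 1917 to 4355. Thymus replicate 3 also carried immature thymocyte transcripts, with Rag1 at 486, Cd8a at 257 and Arpp21 at 153. The other thymus libraries had no read of Rag1 or Cd8a and at most 5.82 of Arpp21. Cd8a was not particular to it, being at 1116, 146 and 85.8 in liver, where Rag1, Dntt and Arpp21 had no read. Cd8b1 was at 28.9 in thymus replicate 3, 16.8 in thymus replicate 1 and 40.9 in liver replicate 1. The part of immature thymocytes in the values of thymus replicate 3 was not tested. T cell and iNKT1 markers were detected in every library, 9 of 9 genes, with Cd3e between 25650 and 46800. Markers of hepatocytes were summed to 1421 to 2075 in the liver libraries, 197 to 868 in thymus and 0.525 to 47.3 in spleen. Of 10 such markers, 6 to 10 had a read in each liver library, led by Alb at 1288, 1588 and 1172.

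No member passed the test between any tissues. With limma-trend and Benjamini-Hochberg adjustment over all 13309 genes, 0 of 34 members had an adjusted p under 0.05 in liver vs thymus, where 0.323% of all genes did. The count was also 0 of 34 in spleen vs thymus against 0.398% of all genes, and 0 of 34 in liver vs spleen against 0.0150%. At an unadjusted p under 0.05 there were 6, 4 and 2 members, beside 11.6%, 11.7% and 3.03% of all genes. The F-test of any tissue difference called 0 members against 0.346% of all genes, and 3 members (Abca1, Abcg1 and Acat2) had an unadjusted F-test p under 0.05, beside 9.95% of all genes. Without thymus replicate 3, Acat2 passed in spleen vs thymus (limma-trend adjusted p 0.0461), and no other member passed in any other fit. A miss does not show that levels were equal: for Nsdhl, a sterol dehydrogenase with the highest F-test p of the members, the 95% interval of the log2 fold change in liver vs thymus still ran from -1.68 to 2.20.

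**Figure D1:**
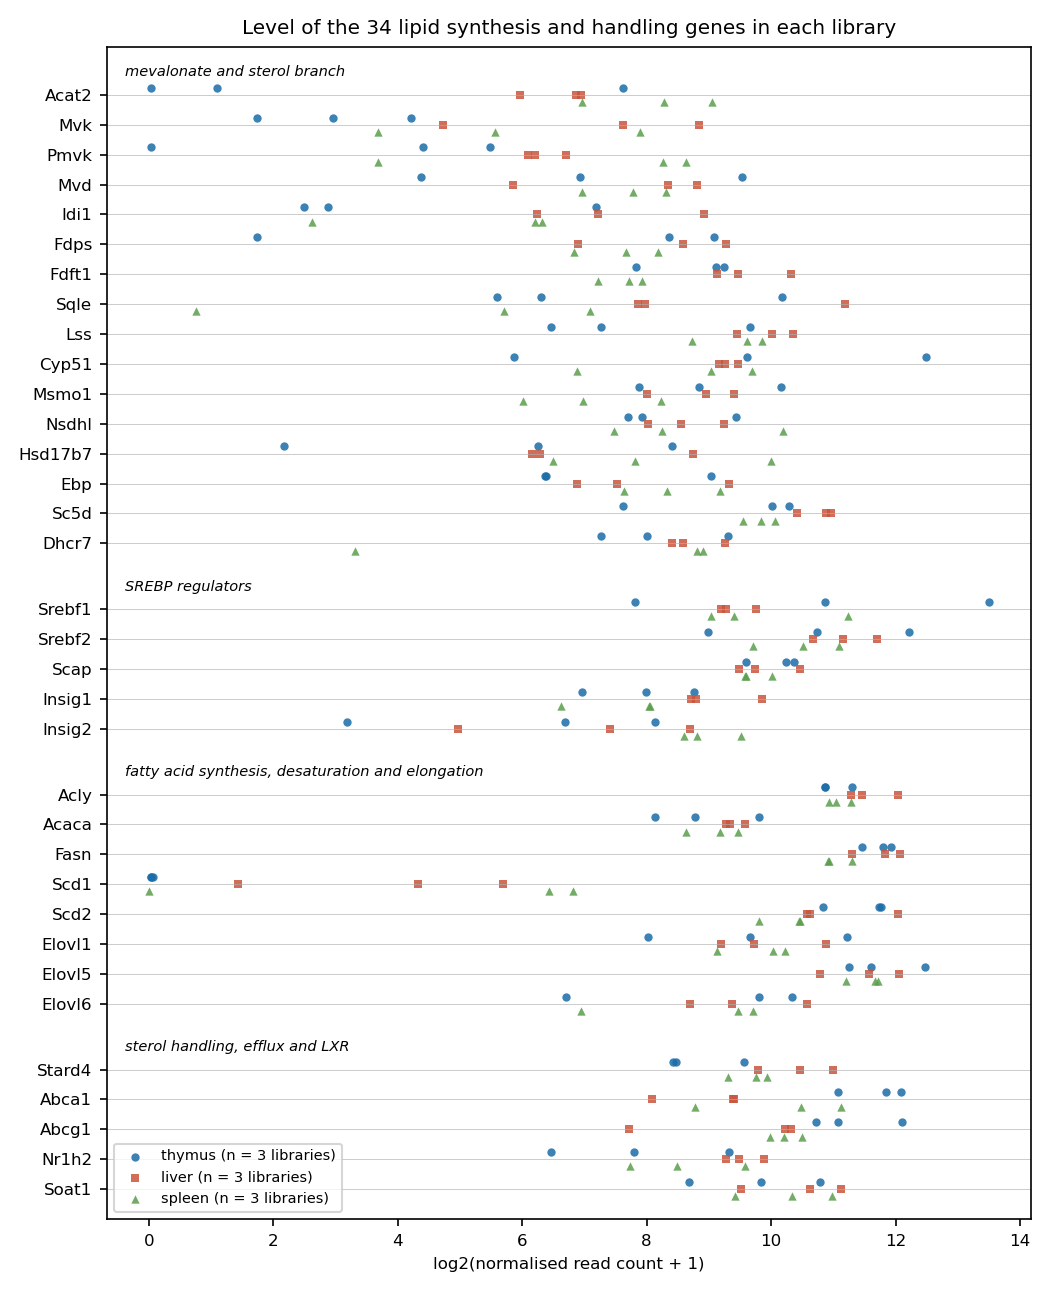
Log2(normalised read count + 1) of each of the 34 genes (horizontal axis) in the 9 libraries, with thymus as circles, liver as squares and spleen as triangles, grouped by role. Thymus points spread widely in the mevalonate and sterol branch, as in Cyp51 and Fdps, while Abca1 and Abcg1 have all 3 thymus points above the liver points.

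Levels between genes were compared per kilobase of exon, averaged over the 9 libraries. Elovl5, which elongates polyunsaturated fatty acids, was highest at 923 normalised reads per kilobase. Acly, which makes cytosolic acetyl-CoA from citrate, stood at 470, and the desaturase Scd2 at 402. The mevalonate and sterol branch was lower, from 32.3 for Idi1 to 251 for Cyp51. Scd1, the other desaturase of the list, was the lowest member at 6.08 per kilobase, so Scd2 was the main desaturase transcript of the pair in these cells. The pair are close paralogs, and reads that fit both may have been split or dropped by the counting.

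The mevalonate and sterol branch was highest in liver as a group. Averaged over its 16 measured enzymes, the mean log2 level was 8.37, 8.21 and 8.38 in liver replicates 1, 2 and 3. It was 6.77, 7.88 and 7.86 in the spleen replicates and 6.96, 5.70 and 7.51 in the thymus replicates. The lowest liver library thus lay above the highest library of either other tissue, and this held under all 5 scalings of the values. The liver mean exceeded spleen by 0.82 and thymus by 1.59, beside -0.02 and 0.58 for the mean of all genes, while spleen exceeded thymus by 0.78 beside 0.60. Under quantile normalisation liver exceeded thymus by 0.89, and spleen exceeded thymus by 0.0072, so the spleen to thymus difference depended on the scaling. The level of the list is given with no test, because its members were chosen with results of these data known.

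For single enzymes of the branch, the log2 fold change was above 0 for 14 of the 16 in liver vs thymus, with a median of 1.45 against 0.29 over all genes. In liver vs spleen it was above 0 for 10 of 16, with a median of 0.73 against -0.02, and in spleen vs thymus for 11 of 16, with a median of 0.80 against 0.33. The 3 comparisons share libraries, so these counts are not independent of each other. Over all 34 members the medians were 0.65, 0.53 and 0.18 for liver vs thymus, liver vs spleen and spleen vs thymus.

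**Figure D2:**
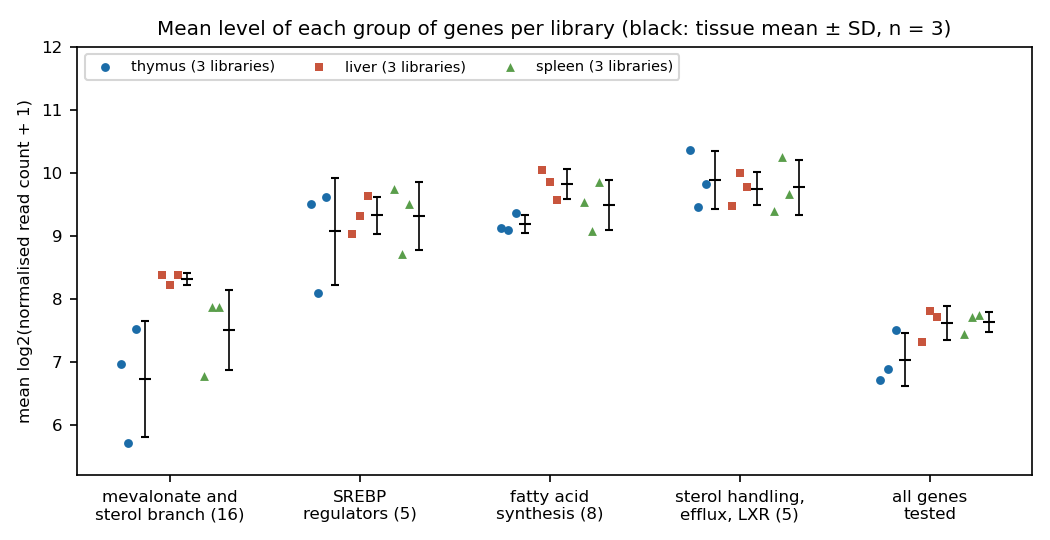
Mean log2(normalised read count + 1) over the genes of each role (vertical axis), with 1 point per library and the tissue mean ± SD (n = 3) in black. In the sterol branch the liver points lie between 8.21 and 8.38, above all spleen and thymus points, while the tissues overlap in the SREBP regulators and the handling genes. In fatty acid synthesis all liver points lie above all thymus points, which no longer holds when Scd1 is left out.

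Values that did not overlap between liver and spleen were counted next. In 6 of 34 members (17.6%) all 3 liver values lay above all 3 spleen values, beside 5.97% of all genes, and in 1 member (2.94%) all lay below, beside 6.77%. The 6 were Sqle, Fdft1, Sc5d, Insig1, Acly and Scd2, and all but Acly kept the separation under all 5 scalings. Acly kept it under 4. The 1 in the other direction was Acat2, under 3 scalings.

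Sqle encodes squalene epoxidase, the first oxygen-using step of sterol synthesis. It was at 2319, 251 and 231 in liver, at 0.7, 51.5 and 135 in spleen and at 47.1, 1151 and 77.8 in thymus. Liver replicate 1 and thymus replicate 2 stood far above the rest, and spleen replicate 1 was at the level of 1 read. Liver exceeded spleen by 4.48 on the log2 scale (SE 1.77, 95% interval 0.71 to 8.26, limma-trend unadjusted p 0.023, adjusted p 1), and without spleen replicate 1 it was 2.61.

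Fdft1, squalene synthase, commits farnesyl units to sterols. It was at 1275, 706 and 557 in liver, at 210, 148 and 243 in spleen and at 552, 607 and 226 in thymus. All liver values lay above all spleen values, with 1 thymus value between them, 1 inside the liver range and 1 inside the spleen range. On the log2 scale liver exceeded spleen by 2.01 (SE 0.78, interval 0.36 to 3.67, limma-trend unadjusted p 0.0202, adjusted p 1).

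Sc5d, sterol-C5-desaturase, acts near the end of the route. It was at 2001, 1883 and 1369 in liver, at 1068, 744 and 916 in spleen and at 1251, 197 and 1033 in thymus. All 3 liver values lay above the 6 others, under each of the 5 scalings. Liver exceeded spleen by 0.94 (SE 0.66) in log2, and thymus by 1.45 (SE 0.66, limma-trend unadjusted p 0.0439, adjusted p 0.416). Without thymus replicate 2 the difference from thymus was 0.60.

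Lss, lanosterol synthase, closes the sterol rings. It was at 1036, 703 and 1301 in liver, at 424, 784 and 920 in spleen and at 87.5, 153 and 812 in thymus. Thymus replicate 3 lay with the peripheral libraries and the other thymus replicates well below them. The liver mean was 2.14 above thymus in log2 (SE 0.83, limma-trend unadjusted p 0.0207, adjusted p 0.331), and without thymus replicate 3 it was 3.08 (limma-trend adjusted p 0.0661).

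Acat2, a cytosolic thiolase that joins acetyl units ahead of mevalonate, had its highest mean in spleen. It was at 531, 311 and 123 in spleen, at 123, 116 and 61.8 in liver and at 1.14, 0.0274 and 196 in thymus. The lowest spleen value, 123.4, was just above the highest liver value, 122.6. Thymus replicate 1 had a single read and replicate 2 none. Spleen stood 5.18 above thymus in log2 (SE 1.92, limma-trend unadjusted p 0.0161, adjusted p 0.306), and it was 7.53 without thymus replicate 3.

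The early mevalonate enzymes were low and uneven. Mvk, mevalonate kinase, was at 6.75, 2.34 and 17.6 in thymus, at 195, 456 and 25.4 in liver and at 46.2, 237 and 11.9 in spleen. All liver values lay above all thymus values, but liver replicate 3 did so by few reads. Pmvk, the next kinase, also had liver values (73.0, 103 and 67.6) above thymus values (43.8, 0.0273 and 20.1), and spleen values of 11.9, 394 and 306 on both sides. Across members, the 3 liver values lay above all thymus values in 5 of 34 (14.7%), beside 9.61% of all genes, and below them in 2 (5.88%), beside 5.73%. Without thymus replicate 3, 9 members lay above, but fewer libraries make separation easier for every gene, and the share of all genes was not counted.

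The other enzymes of the branch overlapped between all tissues. Fdps, which makes farnesyl diphosphate, was at 538, 2.34 and 326 in thymus, 621, 118 and 381 in liver and 288, 113 and 202 in spleen. Cyp51, the lanosterol demethylase, was at 57.2, 5777 and 785 in thymus against 571 to 705 in liver, so that thymus replicate 2 had both the highest Cyp51 of all libraries and the lowest Fdps. Mvd ran from 19.7 to 740 over the 9 libraries, Idi1 from 4.66 to 483, Hsd17b7 from 3.50 to 1016 and Dhcr7 from 8.90 to 632. Msmo1 (63.2 to 1140), Nsdhl (177 to 1172) and Ebp (81.9 to 640) had narrower ranges.

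Replicates of thymus spread most in the sterol branch. The median SD of log2 values over its 16 genes was 2.07 in thymus, 1.26 in spleen and 0.66 in liver. Over 7069 genes in the range of mean level of all 34 members (10th to 90th percentile) the medians were 1.37, 0.68 and 0.66. The branch median was higher than that in thymus and spleen and equal in liver. The branch lies at lower levels than the other roles, so those genes were not matched to it in level. Thymus replicate 2 was the lowest of the 9 libraries for 14 of 34 members (41.2%, beside 17.7% of all genes), 8 of them in the sterol branch. Liver replicate 1 was the highest for 11 members (32.4%, beside 12.8% of all genes). Without liver replicate 1 the liver mean of the branch exceeded spleen by 0.79 and thymus by 1.57. Spleen replicate 1 and thymus replicate 2 weighed more: without spleen replicate 1 liver exceeded spleen by 0.45, and without thymus replicate 2 liver exceeded thymus by 1.08 and spleen exceeded thymus by 0.27. Without thymus replicate 3, which held both Xist and Y-linked reads, these were 1.99 and 1.17. Among the libraries numbered 2 alone, the order of the branch means was also liver (8.21), spleen (7.88) and thymus (5.70), with 1 library each.

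Summed hepatocyte markers, given above, were also highest in the liver libraries, and their part in the liver levels of these genes was not tested. The same holds for division: 5 cycling genes summed to 4871 to 12167 in liver, 1782 to 8112 in spleen and 2219 to 3454 in thymus. Mki67 was at 7015, 3813 and 7571 in liver against 3278, 1522 and 5491 in spleen. In bulk libraries, a lower share of cells that express a gene and less RNA per cell cannot be told apart.

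Of the 5 regulators, only Insig1 separated liver from spleen. Insig1, the sterol-responsive anchor of Scap that is itself an SREBP target, was at 417, 441 and 919 in liver, at 262, 97.6 and 264 in spleen and at 435, 124 and 255 in thymus. In log2, liver stood 1.54 above spleen (SE 0.91, interval -0.40 to 3.49, limma-trend unadjusted p 0.112, adjusted p 1). Insig2, its less sterol-responsive relative, had its highest mean in spleen. It was at 449, 387 and 732 in spleen, at 30.4, 170 and 412 in liver and at 102, 8.12 and 280 in thymus, with all spleen values above all thymus values (log2 fold change 2.97, SE 1.41, limma-trend unadjusted p 0.0523, adjusted p 0.431). Without thymus replicate 2 it was 1.57.

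The factors themselves did not separate the tissues. Srebf2 was at 504, 4765 and 1697 in thymus, at 3335, 2267 and 1630 in liver and at 2169, 832 and 1461 in spleen. Srebf1 was at 11550, 223 and 1875 in thymus, at 621, 863 and 583 in liver and at 2412, 524 and 679 in spleen. Thymus replicates 1 and 2 were at opposite ends for the pair: replicate 1 had the highest Srebf1 and the lowest Srebf2 of the 9 libraries, and replicate 2 the lowest Srebf1 and the highest Srebf2. Srebf2 transcripts stood at 289 and Srebf1 at 381 normalised reads per kilobase over all libraries. Scap, the escort protein, was the steadiest of the 5, from 713 to 1418, with log2 fold changes between -0.34 and 0.17 and intervals within -1.47 and 1.30.

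Promoters of the branch shared a feature that the list did not use. NF-Y, a factor that works beside SREBP at sterol genes, binds the CCAAT box. In the bases up to 250 upstream of the RefSeq start, the letters CCAAT on either strand were present for 12 of 13 sterol branch genes with an entry, for 20 of 27 members (74.1%) for 37.5% of 27025 genes and for 40.7% of the 9133 tested genes with an entry. The E-box CACGTG, on either strand, was present for 7 of 27 members (25.9%) beside 6.86% of genes and 9.99% of tested genes. The sterol response element letters TCACNCCAC, on either strand, were found for 0 of 27 members and 1.22% of genes in this window. An exact DR4 repeat of the kind bound by LXR, AGGTCA repeated after 4 bases, was found on either strand for 0 of 27 members and 0.0148% of genes. So rare a run of letters cannot tell the members from other genes. Inexact copies of the repeat were not searched, in Abca1 or any other member. A match is only a run of letters, and no match says only that these letters are absent from this window. None of the 4 motifs contains another. The members without an entry, searched for none of them, were Sqle, Fdft1, Fdps, Scd1, Scd2, Stard4 and Abcg1. Sqle, Fdft1 and Scd2 are among the members whose liver and spleen values did not overlap.

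Shown from RefSeq on GRCm38.p6, each 5′ to 3′ on the strand of its gene and ending at or before the annotated start, are 3 promoters with a CCAAT box in capitals (in each as its reverse complement, on the opposite strand) and that of Abca1 with its E-box in capitals. Insig1 and Sc5d are shown because their liver and spleen values did not overlap, Lss for its low values in thymus replicates 1 and 2, and Abca1 because it had the lowest F-test p of all members. They lie at chr5:28071162-28071362 (plus strand), chr9:42264301-42264550 (minus), chr10:76531355-76531587 (plus) and chr4:53159896-53160145 (minus). The CCAAT boxes begin 216, 24 and 62 bases upstream of the RefSeq starts of Insig1, Sc5d and Lss, and the E-box of Abca1 begins 147 bases upstream. Insig1 and Sc5d also hold an E-box, left in lower case.
Insig1: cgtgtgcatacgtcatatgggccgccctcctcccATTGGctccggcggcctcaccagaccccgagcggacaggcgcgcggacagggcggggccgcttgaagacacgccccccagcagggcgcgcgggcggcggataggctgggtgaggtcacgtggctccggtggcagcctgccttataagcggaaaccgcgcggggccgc
Sc5d: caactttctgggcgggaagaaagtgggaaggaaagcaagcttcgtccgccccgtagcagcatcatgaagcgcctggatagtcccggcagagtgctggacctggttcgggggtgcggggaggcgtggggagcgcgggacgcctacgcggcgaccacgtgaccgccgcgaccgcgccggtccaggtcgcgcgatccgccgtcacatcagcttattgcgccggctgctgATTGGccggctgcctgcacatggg
Lss: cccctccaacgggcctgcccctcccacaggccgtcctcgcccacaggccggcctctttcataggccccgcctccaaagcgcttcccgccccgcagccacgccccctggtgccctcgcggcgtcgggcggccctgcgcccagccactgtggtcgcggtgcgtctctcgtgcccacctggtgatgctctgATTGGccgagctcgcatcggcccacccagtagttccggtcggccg
Abca1: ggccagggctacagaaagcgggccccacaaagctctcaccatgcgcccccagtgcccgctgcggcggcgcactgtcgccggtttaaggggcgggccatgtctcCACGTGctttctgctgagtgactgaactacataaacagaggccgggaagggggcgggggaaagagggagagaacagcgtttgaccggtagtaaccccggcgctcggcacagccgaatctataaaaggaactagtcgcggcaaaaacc

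NF-Y subunits were on a list of 37 other sterol pathway genes, of which 32 could be tested. None passed in any comparison (limma-trend; 7, 7 and 2 at an unadjusted p under 0.05 in liver vs thymus, spleen vs thymus and liver vs spleen, beside 11.6%, 11.7% and 3.03% of all genes). Nfya, which encodes 1 of the NF-Y subunits, came nearest. It was at 3618, 4650 and 3491 in thymus, 1261, 2080 and 1969 in liver, and 678, 1217 and 1247 in spleen. The thymus values lay above the 6 others, as for 2.94% of all genes, and the liver values above the spleen values, as for 5.97%. Spleen differed from thymus by -1.94 in log2 (SE 0.42, limma-trend unadjusted p 0.000337, adjusted p 0.0648).

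Fatty acid synthesis enzymes, without the nearly absent Scd1, averaged 10.49 ± 0.17 (SD, n = 3) in thymus, 10.68 ± 0.52 in liver and 10.21 ± 0.26 in spleen on the log2 scale. Liver minus thymus was 0.19 and spleen minus thymus -0.28 over these 7 genes, and the liver and thymus libraries overlapped. With Scd1 the differences were 0.64 and 0.30, so the sign for spleen was set by that 1 gene. Over all 8 genes, the median SD of log2 values was 0.58 in thymus and 0.40 in spleen, smaller than in the sterol branch, and 0.73 in liver. Fasn, fatty acid synthase, was at 3578, 3892 and 2829 in thymus, at 4297, 2507 and 3646 in liver and at 1947, 1918 and 2520 in spleen. All spleen values lay below all thymus values, and 1 liver value fell within the spleen range. Its log2 fold change was -0.69 (SE 0.35) in spleen vs thymus, 0.69 (SE 0.35) in liver vs spleen and -0.00 in liver vs thymus, where the interval ran from -0.75 to 0.75.

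Scd2, the desaturase that makes monounsaturated fatty acids, also had its lowest values in spleen. It was at 1827, 3423 and 3475 in thymus, at 4218, 1582 and 1533 in liver and at 1419, 892 and 1398 in spleen. The spleen values lay below the other 6, also under each of the 5 scalings. Spleen differed from thymus by -1.21 in log2 (SE 0.48, limma-trend unadjusted p 0.0246, adjusted p 0.338). Across members, spleen values lay below all thymus values in 3 of 34 (8.82%: Fasn, Scd2 and Abcg1), beside 6.03% of all genes, and above them in 1 (2.94%), beside 9.29%.

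Scd1 had no read in any thymus library. It was at 1.71, 50.7 and 19.1 in liver and at 111, 0 and 84.8 in spleen, so 1 spleen library also lacked it. Against a floor of 3 reads per thymus library, its mean was at least 6.74-fold higher in liver and at least 18.5-fold higher in spleen (counting error only). The liver value of replicate 3 corresponds to about 3 reads by the rough estimate for that library. Without liver replicate 2 the liver mean was 2.94-fold over that floor, and liver replicate 1, at 1.71, lay under it. Hepatocytes are known to express Scd1, and the part of hepatocyte RNA in its liver values was not tested.

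Acly was at 4224, 2829 and 2496 in liver, at 2099, 2490 and 1949 in spleen and at 2520, 1873 and 1855 in thymus. The lowest liver value, 2496, was next to the highest spleen value, 2490, so that separation is slight (log2 fold change in liver vs spleen 0.52, SE 0.37, limma-trend unadjusted p 0.185; 0.29 without liver replicate 1). For Scd2 the log2 fold change in liver vs spleen was 0.84 (SE 0.48), and without liver replicate 1 it was 0.36. Acaca, acetyl-CoA carboxylase 1, which makes malonyl-CoA, ran from 397 to 761 in the periphery and was at 892, 280 and 438 in thymus. Elovl5 ran from 1769 to 5679 over all libraries, Elovl1 from 259 to 2388 and Elovl6 from 103 to 1522, each with overlap between all tissues.

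**Figure D3:**
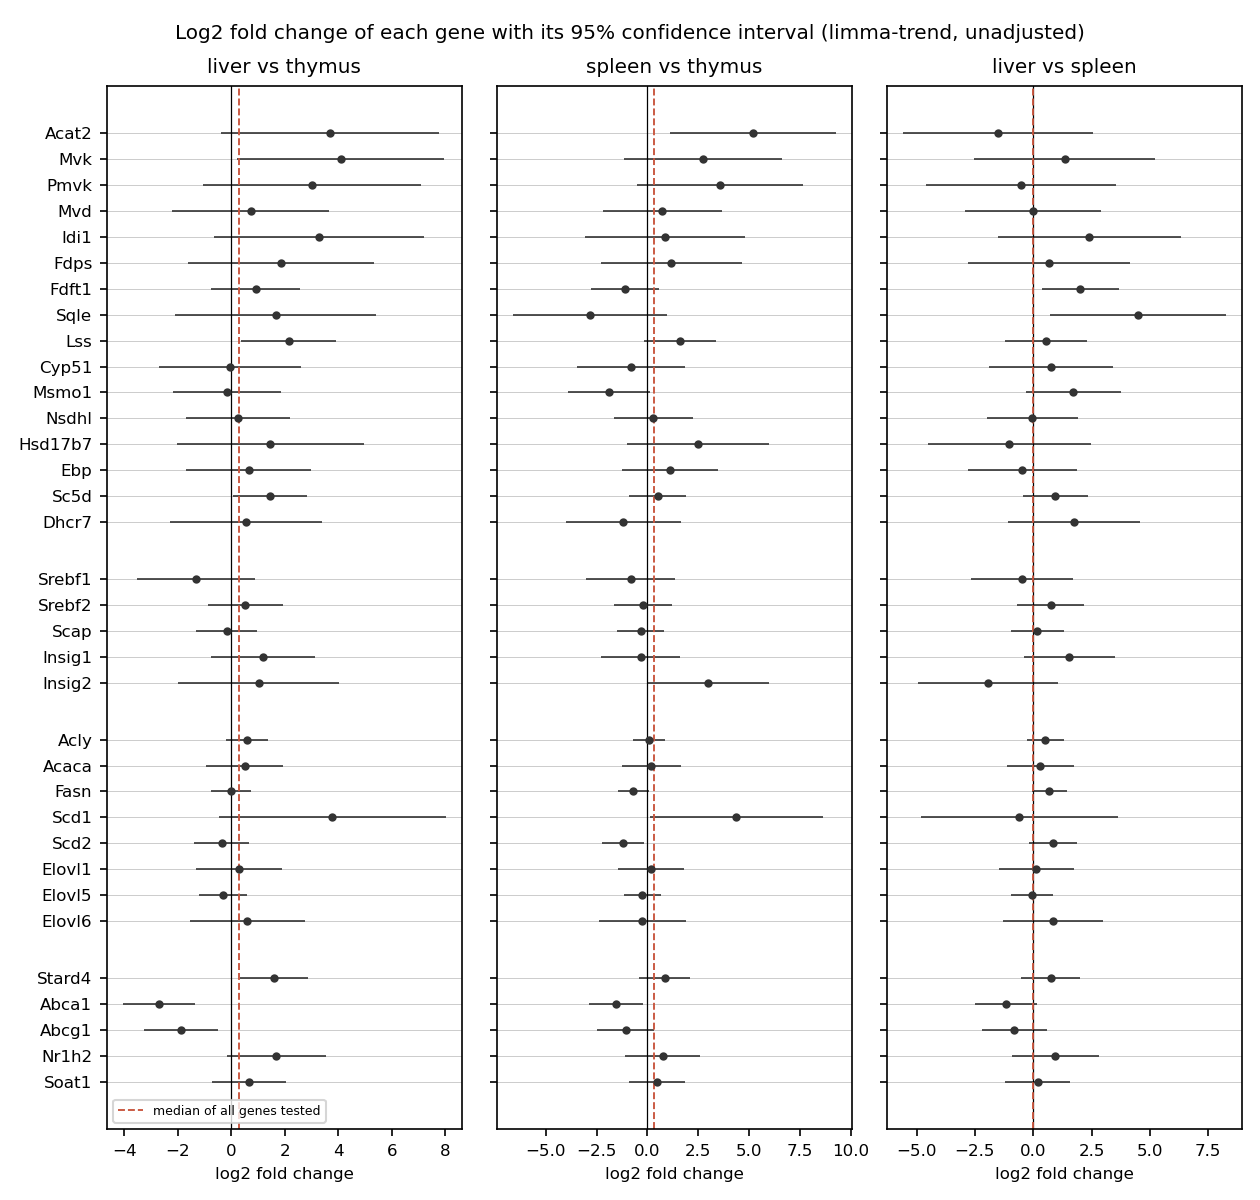
Log2 fold change (horizontal axis) of each gene with its unadjusted 95% confidence interval from limma-trend, for liver vs thymus, spleen vs thymus and liver vs spleen; the dashed line is the median of all 13309 genes. Most intervals cross 0, and that of Abca1 in liver vs thymus runs from -4.05 to -1.36.

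The sterol exporters had their highest values in thymus. Abca1 (ENSMUSG00000015243; chromosome 4, 53030787 to 53159895, minus strand, mm10) loads cholesterol onto lipid-poor apolipoprotein. It was at 4359, 3689 and 2146 in thymus, at 271, 679 and 667 in liver and at 440, 2227 and 1427 in spleen. Every thymus value was above every liver value, while spleen replicate 2 lay just above thymus replicate 3. The mean was 3398 ± 1135 (SD, n = 3) in thymus, 539 ± 232 in liver and 1365 ± 895 in spleen.

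For Abca1 the log2 fold change was -2.71 in liver vs thymus (SE 0.63, limma-trend unadjusted p 0.000628, adjusted p 0.107) and -1.54 in spleen vs thymus (SE 0.63, unadjusted p 0.0274, limma-trend adjusted p 0.35). In 21 alternatives the adjusted p for liver vs thymus ran from 0.0632 to 0.402 and the log2 fold change from -3.01 to -2.24. The call was missed in all of them. Without spleen replicate 1 the value for spleen vs thymus was -0.87. The 3 thymus and liver values stayed apart under each of the 5 scalings.

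Abcg1 (ENSMUSG00000024030; chromosome 17, 31057675 to 31117988, plus strand, mm10) passes cholesterol to HDL particles. It was at 4416, 1681 and 2155 in thymus, at 209, 1271 and 1194 in liver and at 1185, 1446 and 1005 in spleen. All 3 thymus values lay above the other 6, the single member for which this held, where 2.94% of all genes did. In 0 of 34 members all thymus values lay below the other 6, beside 4.07% of all genes. The separation from liver held under 4 of 5 scalings and that from spleen under 2. Its log2 fold change was -1.88 in liver vs thymus (SE 0.66, limma-trend unadjusted p 0.0117, adjusted p 0.292) and -1.07 in spleen vs thymus (SE 0.66). Without liver replicate 1 the former was -1.03, and without thymus replicate 1 the latter was -0.67.

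The LXR receptor genes upstream of these exporters differed in order. Nr1h2, which encodes LXRβ, was at 637, 86.8 and 222 in thymus, at 712, 940 and 618 in liver and at 212, 764 and 359 in spleen. Its highest mean was in liver, where the exporters were lowest, with a liver minus thymus difference of 1.69 in log2 (SE 0.87, interval -0.18 to 3.55). The other LXR gene, Nr1h3, from the list of other sterol genes, had means in the order of the exporters. It was at 332, 0.0268 and 5.07 in thymus, at 0, 101 and 0 in spleen and at 0, 5.12 and 0.796 in liver. Its thymus and spleen means rested mainly on 1 library each. From the same list of other sterol genes, Npc1, which exports cholesterol from lysosomes, was at 5690, 2834 and 4314 in thymus and no higher than 2832 in any other library. Relative to thymus its log2 values differed by -0.99 in the liver libraries and by -1.34 in the spleen libraries (limma-trend adjusted p 0.402 and 0.246).

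Macrophages are a known site of Abca1 and Abcg1 expression. The 5 measured myeloid markers summed to 10.6 to 315 in thymus, 25.6 to 1298 in liver and 56.3 to 3040 in spleen. Within thymus, Cd68 was at 279, 0.0274 and 82.8 and Itgam at 35.9, 10.4 and 0.0444, both highest in replicate 1 like Abca1 and Abcg1. Lyz2 (3.82) and Csf1r (12.6) were highest in replicate 3, and Adgre1 had no read in thymus. In liver and spleen, replicate 1 had the highest Cd68 of its tissue (1171 and 1188) and the lowest Abca1 (271 and 440). The part of such cells in the exporter values was not tested.

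**Figure D4:**
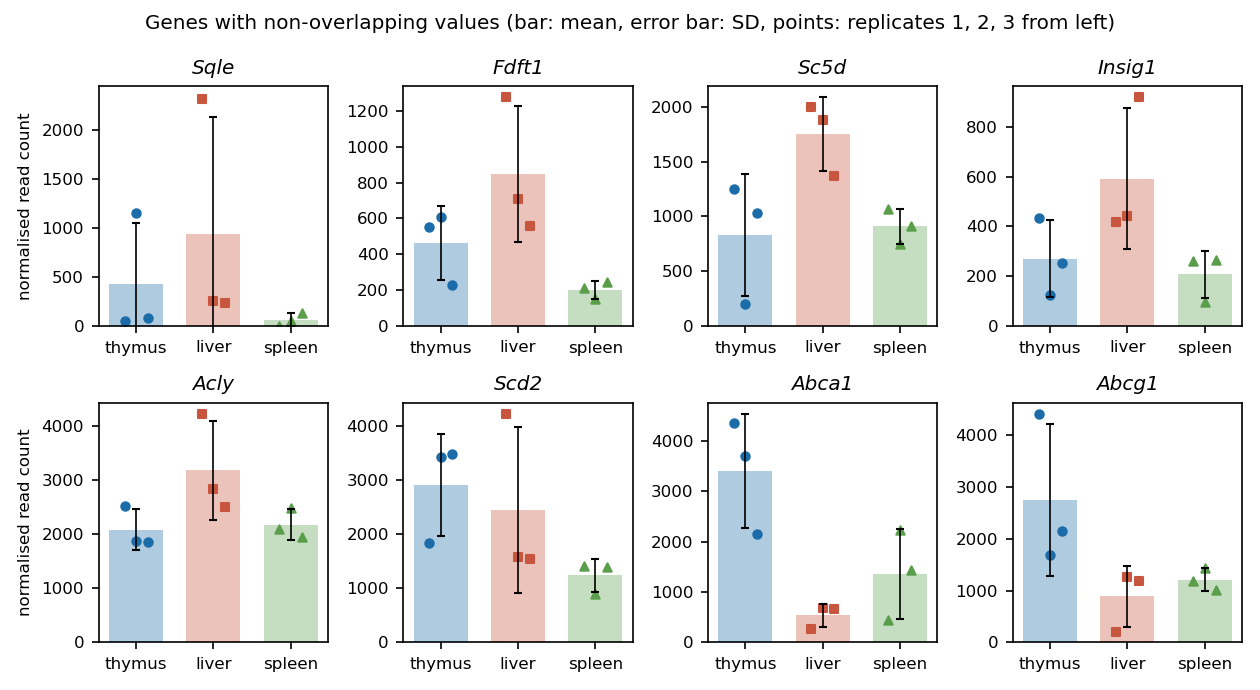
Normalised read count (vertical axis, from 0) of 8 genes in thymus, liver and spleen, with bars for the mean, error bars for the SD (n = 3, drawn down to 0 at most) and points for replicates 1, 2 and 3 from left to right. Sqle, Fdft1, Sc5d, Insig1, Acly and Scd2 have no liver point below a spleen point, and Abca1 and Abcg1 have no thymus point below a liver point.

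The remaining handling genes are a carrier and a storage enzyme. Stard4, a cytosolic sterol carrier, was at 2038, 879 and 1410 in liver, at 631, 861 and 975 in spleen and at 354, 759 and 342 in thymus. All liver values lay above all thymus values under each of the 5 scalings, and liver stood 1.59 above thymus in log2 (SE 0.60, limma-trend unadjusted p 0.0177, adjusted p 0.317). Soat1, which esterifies cholesterol for storage, was at 914, 409 and 1760 in thymus, at 2230, 1577 and 734 in liver and at 2011, 1286 and 685 in spleen, without separation.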

How the data were processed

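RNA of iNKT1 cells from thymus, liver and spleen, 3 libraries each, was sequenced for 76 cycles after library construction with a Nugen Ovation Ultralow kit, per the labels' protocols. The table deposited by the authors holds a normalised signal, a read count per gene scaled by a method not given in the sources used here. Per the submitters' processing notes the tools were Trimmomatic 0.33, TopHat2 2.1.0, HTSeq 0.6.1 and edgeR, on build mm10, with no roles given. Whether counting used strand is not stated, so reads of overlapping genes cannot be told apart.

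From the deposited values, genes at 1 or more in at least 3 of 9 libraries were kept, log2(value + 1) was taken and limma 3.58.1 (limma-trend, R 4.3.3) was fitted to all 9 libraries with tissue as the only term, two-sided, with Benjamini-Hochberg adjustment over all genes and a threshold of 0.05. The procedure was tested on simulated data. Symbols were found for 13359 of 14004 identifiers. The members and gene lists were chosen with earlier results of these data known. Values are given in all libraries for members without overlap in liver vs spleen or in both thymus comparisons, the 5 with the lowest F-test p, and a panel chosen by role. Genes of other lists are named when they did not overlap in both thymus comparisons, and Nfyb, Nfyc and Nr1h3 as relatives of genes named. Further members were given values after these were seen. The reads behind a value were estimated from the equal steps between low values, which were whole within 0.1 read for 96.9% to 100% of low values in 8 libraries and 67.1% in liver replicate 3. Gene positions and exon lengths are from GENCODE on GRCm38. Some genes of these routes are not reported here.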

Additional observations from a re-analysis of the deposited data

How the results depend on the processing

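Member counts past the threshold stayed at 0 under every alternative except 1, spleen vs thymus without thymus replicate 3. Among fold changes printed here, near-zero ones changed sign, none of them called. Fasn in liver vs thymus was 0.15 and 0.17 with equal totals (all genes, and without mitochondrial genes), 0.25 under quantile normalisation and -0.17 to 0.22 with each library left out. Scap in liver vs spleen was -0.086 with array weights and -0.12 to 0.38 with a library left out, Scap in liver vs thymus -0.46 to 0.037 and Nsdhl in liver vs thymus -0.070 to 0.80. Numbers of genes called moved more. Leaving out each library in turn gave 8 to 151 genes for liver vs thymus, 9 to 140 for spleen vs thymus, 0 to 3 for liver vs spleen and 18 to 74 for the F-test, with the highest counts of both thymus comparisons without thymus replicate 3. Quantile normalisation gave 67, 4 and 77 genes for liver vs thymus, liver vs spleen and the F-test, fits on the 6 libraries compared gave 12, 16 and 6 for liver vs thymus, spleen vs thymus and liver vs spleen, and array weights gave 18 for liver vs spleen and 74 for the F-test. The cause was not tested. Members not overlapping ran, with each library left out, from 5 to 10 (higher in liver than thymus), 1 to 5 and 3 to 5 (higher and lower in spleen than thymus), and 6 to 11 and 1 to 4 (higher and lower in liver than spleen), where fewer libraries make separation easier. Shares of all genes were not counted in those fits. With equal library totals 8 were higher and 1 lower in liver than thymus, beside 10.8% and 4.35% of all genes. When mitochondrial genes were left out of the totals 9 were higher, beside 11.4%. Median-of-ratios scaling and quantile normalisation left 0 lower in liver than spleen, beside 6.53% and 6.4% of all genes. The sterol branch differences from thymus were 0.89 for liver and 0.0072 for spleen under quantile normalisation. The fatty acid difference of liver over thymus was 0.36 with a pseudocount of 8, -0.084 as a median over members and 0.19 without Scd1 (chosen after seeing the data), and that of spleen over thymus -0.58 as a median and -0.28 without Scd1. The median of all genes in liver vs thymus ran from 0.06 to 0.45 over the scalings.

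With the replicate number as a block, 4 genes were called in liver vs spleen and no call of a member changed. Same-numbered residuals correlated from -0.00073 to 0.0891 (median 0.043), and differently numbered ones from -0.087 to 0.048 (median -0.019). Correlations this weak cannot decide whether equal numbers share an animal or a batch, which the labels do not say. A term for the libraries numbered 2, which differ from the others in Xist and Y-linked reads, was added after seeing the data and gave 40, 55 and 3 genes for liver vs thymus, spleen vs thymus and liver vs spleen, with 0 members. Count tests on recovered reads were not run, since liver replicate 3 did not give whole reads. Its depth of 3888184 estimated reads limits low genes.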

Other observations

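Fatty acid oxidation genes were tested beside the synthesis genes. Of 22 listed, 18 could be tested and 0 passed in any comparison (limma-trend; 3, 2 and 0 at an unadjusted p under 0.05 in liver vs thymus, spleen vs thymus and liver vs spleen, beside 11.6%, 11.7% and 3.03% of all genes). Cpt1a, which brings long-chain fatty acids into mitochondria, was at 639, 849 and 303 in thymus, at 1327, 1625 and 1345 in liver and at 4121, 2350 and 1897 in spleen. Its 3 tissues did not overlap, in the order thymus, liver, spleen. All thymus values lay below the other 6, as for 4.07% of all genes. Spleen stood 2.27 above thymus in log2 (SE 0.52, limma-trend unadjusted p 0.000563, adjusted p 0.0852), and the lowest adjusted p over its alternatives was 0.0406, under quantile normalisation. Etfdh, which passes electrons from oxidation to ubiquinone, had all thymus values (831, 1428 and 1037) above all liver (434, 604 and 661) and spleen (349, 764 and 782) values. Decr1, a reductase for the breakdown of unsaturated fatty acids, had all thymus values (202, 1.19 and 52.7) below all liver (323, 325 and 394) and spleen (213, 347 and 221) values.

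Among 27 tested genes of other fatty acid and triglyceride synthesis steps, 0 passed (limma-trend; 4, 3 and 1 at an unadjusted p under 0.05 in the same order). Hacd3, a dehydratase of fatty acid elongation, was at 3856, 5897 and 4047 in thymus, at 2217, 2079 and 2266 in liver and at 1891, 2958 and 1809 in spleen. Dgat1, which completes triglycerides, was at 562, 1371 and 802 in thymus, and no other library exceeded 546. Mlxip, a glucose-responsive transcription factor, was at 8536, 4137 and 3930 in thymus and no other library exceeded 3702. In these 3 genes every thymus library was thus above every other library, as for 2.94% of all genes, without passing the test.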
